A study of Mus musculus with 5 samples.

Results

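Cyclic nucleotide phosphodiesterases were examined in the striatum of mice with a Huntington's disease (HD) transgene. The set held 10 genes, Pde1a, Pde1b, Pde1c, Pde2a, Pde4a, Pde4b, Pde4d, Pde7b, Pde8b and Pde10a, taken by gene symbol from the platform's probe table. All 10 were on the array, with 18 of its 26423 probes, among 17742 named genes. Pde1a had 4 probes, Pde1c and Pde4d had 3 each, Pde4b had 2, and the other genes had 1 each.

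The array measured 5 male FVB mice aged 12 months, and every mouse carried the HD transgene: a GFP fusion with the first exon of human HTT, carrying 84 CAG repeats and driven by the human ubiquitin promoter. The 3 mice of the group HD_miR196a also carried precursor miR-196a behind a human ubiquitin promoter, from a cross of HD mice with miR-196a mice, and the 2 mice of the group HD did not. The labels describe motor function as improved in the first group and weak in the second, which sets the question asked here: which phosphodiesterase transcripts differ between them. The ubiquitin promoter is not specific to neurons, the number of founders behind each line is not stated, and mice without the HD transgene were not analysed here. Nothing in the labels says that mice were littermates, so litter could not be set apart from genotype. The p-values below weigh each difference against the spread between mice within groups, with variance information shared across all probes.

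The microRNA that separates the groups is shown because its transgene is what the labelled genotypes differ in. RefSeq (GRCm38.p6) lists 2 mouse loci, Mir196a-1 and Mir196a-2, that give the same mature 22-base strand, and the sources used here do not say which precursor the transgene holds. The capitals mark the seed, bases 2 to 8, written 5′ to 3′.
mmu-miR-196a-5p: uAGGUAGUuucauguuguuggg

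Phosphodiesterases hydrolyse cAMP and cGMP and so end the signals that adenylyl and guanylyl cyclases start. In medium spiny neurons, the principal neurons of the striatum, dopamine receptors set cAMP up or down through adenylyl cyclases. The phosphodiesterases shape how long and where protein kinase A stays active. The PDE1 enzymes are switched on by calcium and calmodulin, PDE2A is stimulated by cGMP, PDE4, PDE7 and PDE8 enzymes prefer cAMP, and PDE10A, which is concentrated in medium spiny neurons, accepts cAMP and cGMP. Loss of PDE10A is a known early change in the striatum in HD.

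Values are deposited single-colour intensities after quantile normalization and a floor of 1, on the log2 scale. The deposited medians were lower in HD_miR196a mice (160.0 to 166.3) than in HD mice (184.3 and 185.6), so levels depend on this normalization. Without scaling, the median difference over all probes was -0.20, and the differences of the 18 probes moved down with it. As a guide to background, the 544 probes of olfactory receptor genes had a median level of 4.99 and a 95th percentile of 8.31, and 12 of the 18 phosphodiesterase probes lay above the latter. Of 22 medium spiny neuron markers 18 were measured, and 16 of these lay above that percentile. Penk, Drd1, Rgs9 and Ppp1r1b were bright, while the Drd2 probe was at 0.00 to 2.04 in the 5 mice.

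**Figure D1:**
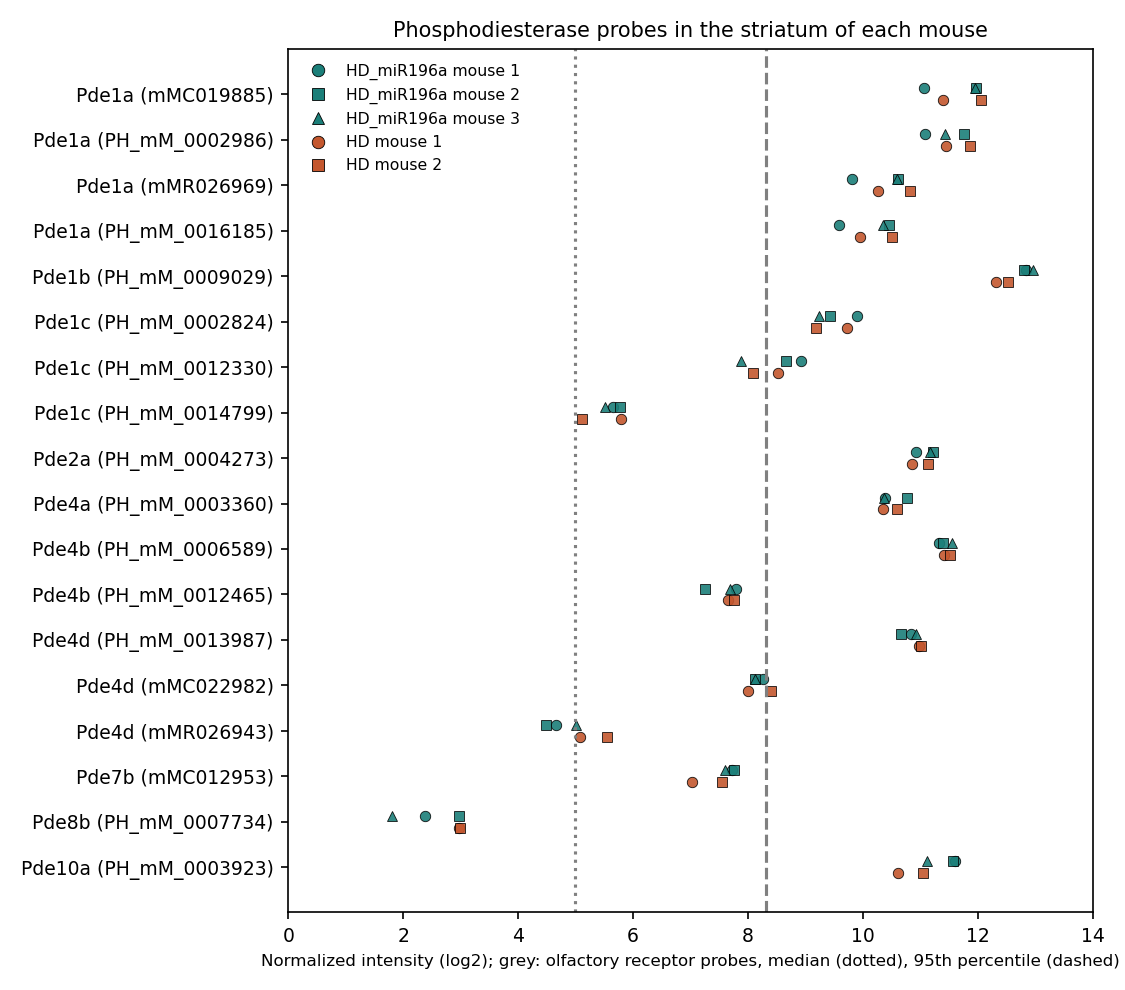
Level of each of the 18 phosphodiesterase probes (log2 normalized intensity, horizontal axis) in each mouse; green symbols are HD_miR196a mice, orange symbols HD mice, and the shape gives the mouse number. The Pde1b probe lies between 12.31 and 12.97 in the 5 mice, and the Pde8b probe, between 1.80 and 2.98, lies below the olfactory receptor median.

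The brightness of the probes spanned most of the array. Taking the brightest probe of each gene, Pde1b stood at percentile 96.7 of all probes by mean level, Pde1a at 92.3, Pde4b at 90.5, Pde10a at 88.8, Pde2a at 87.8, Pde4d at 86.4, Pde4a at 83.0, Pde1c at 73.2, Pde7b at 51.4 and Pde8b at 6.40. This is an order of probes and not of transcript amounts, because probes of a single gene also differed: those of Pde4d stood at percentiles 86.4, 58.9 and 20.9, those of Pde1c at 73.2, 61.7 and 26.8, those of Pde4b at 90.5 and 52.6, and those of Pde1a between 80.1 and 92.3. The range of Pde1b over mice, 12.31 to 12.97, lay above that of Pde1a, 11.06 to 12.06. From Pde1a down to Pde4a, the ranges over mice of neighbouring genes in this order overlapped. Pde1c, at 9.18 to 9.89, lay apart from Pde4a above it, at 10.34 to 10.77.

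None of the 18 probes passed the test between HD_miR196a and HD mice. The test was limma with Benjamini-Hochberg adjustment over all probes and a threshold of 0.05, and it called 0 of 26423 probes (0%). The smallest adjusted p of a phosphodiesterase probe was 0.979. At an unadjusted p under 0.05 limma gave 2 of the 18 probes, those of Pde10a and Pde1b, against 4.16% of all probes. The groups did not overlap at 5 of the 18 probes, against 20.3% of all probes: 3 had every HD_miR196a mouse above both HD mice (9.96% of all probes) and 2 had every one below (10.3%). By the brightest probe of each gene, 4 of the 10 genes had groups apart, against 20.7% of all genes. The median difference over the 10 genes was 0.05 on the log2 scale, with 6 genes higher and 4 lower, and over all genes it was -0.00.

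Pde10a, Pde1b and Pde7b were the 3 genes with every HD_miR196a mouse above both HD mice. Pde10a, the phosphodiesterase most closely tied to medium spiny neurons, measured 11.61, 11.57 and 11.11 in the HD_miR196a mice, given here and below in order of mouse number, against 10.62 and 11.05 in the HD mice. The groups were separated by the small gap between HD_miR196a mouse 3 and HD mouse 2, and HD mouse 1 was the lowest. The means were 11.43 ± 0.28 (SD, n = 3) and 10.83 ± 0.30 (SD, n = 2), a difference of 0.60 ± 0.22 (SE) or 1.51-fold, with a 95% interval from 0.02 to 1.18 (limma adjusted p = 0.979).

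Pde1b encodes the calcium and calmodulin stimulated enzyme that is abundant in striatum. Its probe measured 12.84, 12.80 and 12.97 in HD_miR196a mice and 12.31 and 12.53 in HD mice. The HD_miR196a mice lay close together and above both HD mice. The means were 12.87 ± 0.09 (SD, n = 3) and 12.42 ± 0.15 (SD, n = 2), a difference of 0.45 ± 0.12 (SE) or 1.37-fold, with an interval from 0.14 to 0.76 (limma adjusted p = 0.979).

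Pde7b, a cAMP-specific enzyme that striatal neurons express, was at 7.71, 7.75 and 7.61 in HD_miR196a mice and at 7.03 and 7.55 in HD mice. Here HD mouse 2 lay just under the HD_miR196a mice, and HD mouse 1 was far below. The difference was 0.40 ± 0.18 (SE), with an interval from -0.08 to 0.87 (limma adjusted p = 0.979). The probe lay within the range of olfactory receptor probes, brighter than 89.2% of them.

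The separation of these 3 genes depended on the scaling. In the deposited intensities the Pde10a probe read 2695, 2859 and 2195 in HD_miR196a mice and 1726 and 2346 in HD mice, so HD_miR196a mouse 3 lay under HD mouse 2. The Pde1b probe read 6303, 6700 and 7948 against 5497 and 6577, and the Pde7b probe 193.0, 208.6 and 188.0 against 138.3 and 202.6. Without scaling all 3 genes overlapped between the groups. Their differences were then 0.35, 0.21 and 0.23, or 0.55, 0.41 and 0.43 relative to the shift of all probes. With median centring in place of quantiles the groups stayed apart for the 3 genes, at 0.52, 0.38 and 0.40.

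The differences also depended on which HD mouse was kept. Without HD mouse 1 the difference was 0.38 for Pde10a, 0.34 for Pde1b and 0.14 for Pde7b, and without HD mouse 2 it was 0.81, 0.56 and 0.66. Without mouse 1 of each group it was 0.29, 0.36 and 0.13. Each of those fits leaves 1 HD mouse, which limma then treats as varying like the other group. All 3 kept their sign in each alternative run, although the filters and variance settings could not change a difference.

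Several marker lists also had a median difference above 0, but not all had HD mouse 1 lowest, as these 3 genes did. The summed normalized intensity of the 18 measured markers of medium spiny neurons was 93359 to 101021 in HD_miR196a mice and 75485 to 85062 in HD mice, and 14 of the 18 were higher in HD_miR196a mice (48.9% of all genes were), 7 of them with groups that did not overlap (9.96% of all probes were apart in this direction). The median difference of these markers was 0.20. By mean log2 level the same list was at 10.86, 10.92 and 10.75 in HD_miR196a mice and at 10.47 and 10.85 in HD mice, where HD mouse 1 was lowest and the groups overlapped. Oligodendrocyte markers had a median difference of 0.22, with 11 of 11 higher and 1, Mbp, apart, and markers of thalamus and pallidum one of 0.26, with 5 of 8 higher and 0 apart. By mean log2 level, both of these lists were lowest in HD mouse 2. In both, HD mouse 1 lay above at least 1 HD_miR196a mouse. Markers of endothelium and pericytes and of striatal interneurons each had a median difference of 0.05. The mean log2 level was lowest in HD mouse 1 for the former and in HD mouse 2 for the latter, and the groups overlapped. Choroid plexus and ependymal markers summed to 3702 to 5102 against 2875 to 2905. Their mean log2 level was 8.43, 7.90 and 7.85 in HD_miR196a mice and 7.71 and 7.73 in HD mice. There the groups were apart and HD mouse 1 was lowest, with 5 of the 8 genes under the olfactory receptor percentile. Of these 8 genes 5 were higher and 3 lower, and only Ccdc153 had the groups apart. Ttr was at 10.64 in HD_miR196a mouse 1 and between 7.09 and 7.70 in the other mice. Cortical neuron markers overlapped between the groups, and with their mean as a covariate the Pde10a difference was 0.60, the Pde1b difference 0.45 and the Pde7b difference 0.41. The part of these cell types in the values of the 3 genes was not tested. In bulk tissue, fewer cells of a type and less RNA per cell cannot be told apart.

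**Figure D2:**
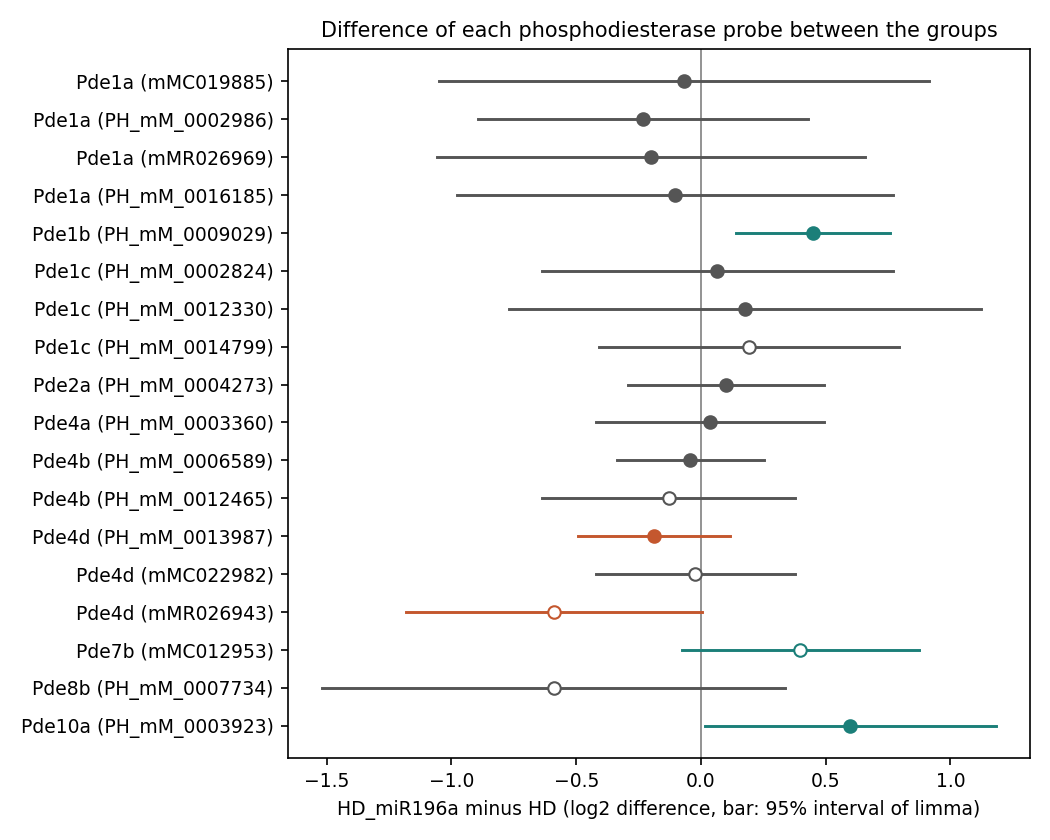
Difference of each probe, HD_miR196a minus HD (log2, horizontal axis), as a point with the 95% interval of limma as a bar; green marks probes with every HD_miR196a mouse above both HD mice, orange those with every one below, and open points have a mean under the 95th percentile of olfactory receptor probes. The intervals of Pde10a (0.02 to 1.18) and Pde1b (0.14 to 0.76) lie above 0 before adjustment for the number of probes.

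The stretches upstream of these 3 genes are shown as background, and no link between sequence and level was tested. Each is the 250 bases before the start site listed furthest upstream in RefSeq (GRCm38.p6), written 5′ to 3′ along the gene, with CG dinucleotides in capitals.
Pde10a, chr17:8801495-8801744, plus strand: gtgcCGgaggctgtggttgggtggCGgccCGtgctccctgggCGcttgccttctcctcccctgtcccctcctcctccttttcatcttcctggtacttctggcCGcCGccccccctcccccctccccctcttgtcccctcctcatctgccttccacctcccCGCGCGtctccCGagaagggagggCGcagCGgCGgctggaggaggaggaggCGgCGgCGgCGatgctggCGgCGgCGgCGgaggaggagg
Pde1b, chr15:103502784-103503033, plus strand: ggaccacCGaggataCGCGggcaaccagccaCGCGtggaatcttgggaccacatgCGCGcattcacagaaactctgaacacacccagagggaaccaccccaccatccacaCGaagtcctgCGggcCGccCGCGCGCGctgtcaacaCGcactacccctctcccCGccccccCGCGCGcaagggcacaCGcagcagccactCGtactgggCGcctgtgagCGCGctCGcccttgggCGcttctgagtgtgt
Pde7b, chr10:20548329-20548578, minus strand: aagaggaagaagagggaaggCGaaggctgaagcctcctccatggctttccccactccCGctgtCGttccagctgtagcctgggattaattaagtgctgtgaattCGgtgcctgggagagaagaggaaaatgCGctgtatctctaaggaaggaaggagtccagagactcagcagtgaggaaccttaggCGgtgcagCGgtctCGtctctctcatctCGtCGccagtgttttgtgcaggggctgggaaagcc
The Pde10a stretch held 21 CG dinucleotides, more than 83.7% of the 32851 mouse windows of this length, and the Pde1b stretch held 26, more than 90.4%. The Pde7b stretch held 10, where the median window held 6. RefSeq lists a second Pde10a start and 2 further Pde1b starts, whose windows held 4, 0 and 1, and the array does not say which start was in use. The cAMP response element bound by CREB, TGACGTCA, was in 1.55% of all windows and in 0 of the 31 windows of the 10 genes. Its shorter core TGACG, searched on both strands and so also found wherever the full element is, was in 17.8% of all windows and in 3 of the 31, in a window each of Pde1a, Pde4a and Pde4b. A match describes letters only, and the lack of one says nothing about the factor.

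After quantile normalization, Pde1a and Pde1c, the other calcium and calmodulin stimulated enzymes, varied more between mice than between groups. The brightest Pde1a probe measured 11.06, 11.96 and 11.95 in HD_miR196a mice and 11.39 and 12.06 in HD mice, a difference of -0.07 ± 0.38 (SE). Mouse 1 of each group was low and the groups overlapped. The groups also overlapped at the other 3 probes, with HD_miR196a mouse 1 lowest and HD mouse 2 highest at all 4 probes. At the second brightest probe, HD mouse 1 (11.44) lay above HD_miR196a mouse 3 (11.42). The differences of the other 3 probes were -0.23, -0.20 and -0.11, and the 4 intervals together reached from -1.06 to 0.91. Without scaling the difference was -0.30 for the brightest probe and -0.47, -0.43 and -0.34 for these 3. Within groups the pooled SD of the 4 probes was 0.33 to 0.50, where the median over probes above the olfactory receptor percentile was 0.13, and it exceeded that of 92.3% to 97.3% of those probes.

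The mean of the cortical neuron markers had the same lowest and highest mice. So did Slc17a7, Tbr1, Neurod2, Neurod6, Emx1, Nr4a2, Cck and Rorb singly. The other measured markers did not, and Fezf1, within the olfactory receptor range, was highest in HD_miR196a mouse 1. The mean log2 level of the 15 measured of 16 was 9.18, 10.63 and 10.47 in HD_miR196a mice and 9.43 and 10.86 in HD mice. Their summed intensity was 29726 to 61576 in HD_miR196a mice and 28433 to 68827 in HD mice, and 13 of the 15 lay above the olfactory receptor percentile. With that mean as a covariate the brightest Pde1a probe differed by -0.04 ± 0.11 (SE) between the groups. Whether cortical tissue in the samples contributed to the Pde1a values was not tested. Because of this spread, the sign of the difference at 3 of the 4 probes turned without HD_miR196a mouse 1 and without HD mouse 2, which took the brightest probe to 0.23 and 0.26.

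Pde1c ran the other way between mice. Its brightest probe measured 9.89, 9.43 and 9.23 in HD_miR196a mice and 9.72 and 9.18 in HD mice, with mouse 1 of each group highest within its group. The second probe, at 8.93, 8.67 and 7.87 against 8.53 and 8.09, kept that order within each group, and the third lay within the olfactory receptor range. The group differences were 0.07 ± 0.27, 0.18 ± 0.36 and 0.19 ± 0.23 (SE), smaller than the spread between mice. Without scaling the first 2 became -0.17 and -0.032. Oligodendrocyte markers had the same order of mice within each group, with a mean log2 level of 12.20, 11.84 and 11.58 in HD_miR196a mice and 11.85 and 11.41 in HD mice over the 11 measured of 12, and sums of 64848 to 86659 and 55211 to 72138. Their part in the Pde1c values was not tested.

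**Figure D3:**
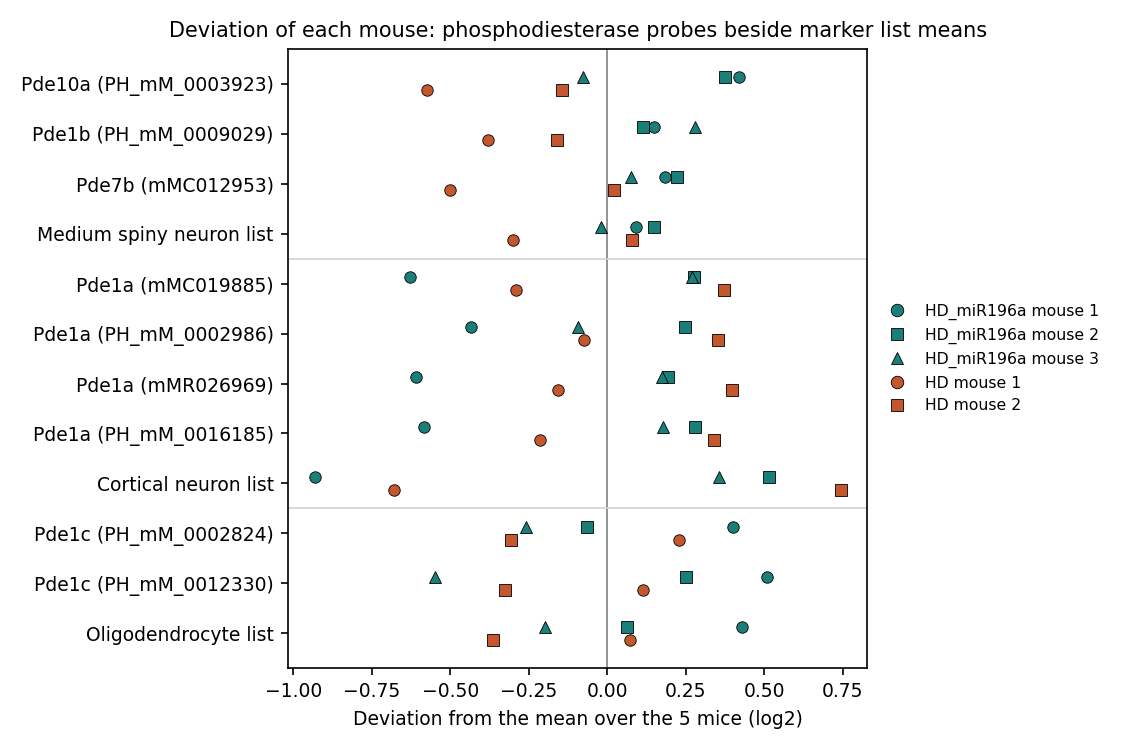
Deviation of each mouse from the mean over the 5 mice (log2, horizontal axis) for probes of Pde10a, Pde1b, Pde7b, Pde1a and Pde1c and for the mean of 3 marker lists; green symbols are HD_miR196a mice, orange symbols HD mice, and shapes give the mouse number. The 4 Pde1a probes and the cortical list have both mice numbered 1 on the low side, while HD mouse 1 alone is far below the rest for Pde10a (-0.57) and Pde7b (-0.50).

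The cAMP-preferring PDE4 enzymes, targets of rolipram, had differences between -0.19 and 0.04 on their brightest probes. Pde4b, a major brain form, measured 11.32, 11.40 and 11.54 in HD_miR196a mice and 11.40 and 11.52 in HD mice on its brighter probe, so the groups overlapped. The difference was -0.04 with an interval from -0.34 to 0.25, the narrowest of the set, which leaves room for a change of about that size in either direction. Overlap and size depended on the scaling: in the deposited intensities this probe read 2188, 2533 and 2955 against 2959 and 3253, every HD_miR196a mouse below both HD mice, a difference of -0.29. The second Pde4b probe, within the olfactory receptor range, was then also apart, with a difference of -0.30 in place of -0.13. Without scaling 38.1% of all probes were apart in this direction. Pde4a was at 10.38, 10.77 and 10.37 against 10.34 and 10.59, a difference of 0.04 with an interval from -0.42 to 0.49. Its small difference turned to -0.025 with median centring and to -0.20 without scaling, the size of the shift of all probes.

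Pde4d was the gene with HD_miR196a mice below HD mice. The bright probe measured 10.83, 10.65 and 10.92 in HD_miR196a mice, each below the 10.98 of the lower HD mouse, a difference of -0.19 ± 0.12 (SE; limma adjusted p = 0.979). A dim probe at the level of the olfactory receptor median had the groups apart in that direction too, at 4.66, 4.49 and 5.01 against 5.08 and 5.55. With values floored at that median, the difference of this dim probe was -0.28 in place of -0.59. The middle probe did not follow, at 8.27, 8.12 and 8.12 against 8.00 and 8.39, a difference of -0.02 ± 0.15 (SE). The bright probe stayed below 0 in every alternative, between -0.43, without scaling, and -0.11, without HD_miR196a mouse 2.

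Pde2a, whose activity rises with cGMP, measured 10.92, 11.22 and 11.16 in HD_miR196a mice and 10.86 and 11.14 in HD mice. The groups overlapped, with mouse 1 lowest in each, and the difference of 0.10 ± 0.15 (SE) turned to -0.14 without scaling. Pde8b, a high-affinity cAMP enzyme, measured 2.38, 2.97 and 1.80 against 2.96 and 2.98. It was brighter than only 21.5% of olfactory receptor probes, and no difference is read from a probe at that level.

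The mouse-by-mouse pattern of Pde10a and Pde1b was set beside that of the brightest probes of 8661 other genes above the olfactory receptor percentile. Likeness was the mean absolute difference between the deviations of the 5 mice, so a small value is a close match. The deviations include the group difference, so genes with a similar group difference are close in part by construction. For Pde10a the closest were Rasgrp2 (0.088), Malat1 (0.090), Itga9 (0.095), Rgs20 (0.10) and Rgs9 (0.11), where the median gene was at 0.33. Rasgrp2 is a guanine nucleotide exchange factor for Rap proteins, and Rgs9 is a striatal regulator of G-protein signalling. For Pde1b they were Lrrn3 (0.031), the olfactory receptor gene Olfr287 (0.043), P3h3 (0.050), Ccr6 (0.052) and Nppb (0.059), with the median gene at 0.23. Among the 10 phosphodiesterases, Pde7b was closest to each of them, at 0.16 from Pde10a and 0.13 from Pde1b. Pde10a and Pde1b were 0.22 apart, close to the 0.23 of the median gene for Pde1b, and Pde2a was nearer to Pde1b, at 0.19. The 5 mice were the only points behind each of these values.

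Other phosphodiesterases were measured for 12 of 14 listed genes, and none passed limma. Of the 12, 5 were higher and 7 lower, with a median difference of -0.06. The groups were apart at 2 of them upward and at 3 downward, against 20.7% of all genes in either direction. Pde6g, the inhibitory subunit of the rod photoreceptor enzyme, measured 8.96, 8.88 and 8.79 in HD_miR196a mice and 8.26 and 8.54 in HD mice (limma adjusted p = 0.979), the only gene of the list at an unadjusted p under 0.05, against 3.71% of all genes. The groups were apart, at a level just above the olfactory receptor percentile. The cone subunit Pde6h differed by -0.26 ± 0.14 (SE) within the olfactory receptor range.

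Upstream and downstream of the phosphodiesterases, no listed gene passed either. The G proteins that couple receptors to cyclases had a median difference of -0.03 over 8 of 8 genes: Gnal, the stimulatory subunit of striatal neurons, differed by 0.00 ± 0.14 (SE), while Gnai2 and Gnai3, inhibitory subunits, differed by -0.21 ± 0.09 and -0.28 ± 0.16. Of guanylyl cyclases and nitric oxide synthase, 2 of 11 genes were measured, the natriuretic peptide receptors Npr1 (0.04 ± 0.12) and Npr2 (-0.04 ± 0.17). Of the calmodulins, Calm2 and Calm3 differed by -0.04 ± 0.12 and 0.05 ± 0.13. Adenylyl cyclases were not analysed here.

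Genes of protein kinase A, the main effector of cAMP, had a median difference of -0.06 over 9 of 9 genes, with 3 higher and 6 lower. Prkar1b, a regulatory subunit of neurons, measured 11.15, 12.18 and 10.48 in HD_miR196a mice and 12.86 and 13.23 in HD mice on its only probe. Every HD_miR196a mouse was below both HD mice, with a wide spread, and the difference was -1.77 ± 0.53 (SE; limma adjusted p = 0.979). The kinase inhibitor gene Pkia differed by -0.20 ± 0.12. The effectors other than protein kinase A, which are protein kinase G, the Epac exchange factors and cyclic nucleotide gated channels, had a median of 0.16 over 13 of 14 genes, 8 of them under the olfactory receptor percentile. Cngb3 differed by 0.94 ± 0.20 near background (limma adjusted p = 0.979), and Prkg2, cGMP-dependent protein kinase II, by 0.25 ± 0.12. The A-kinase anchoring proteins, which hold the kinase beside its targets, had a median of -0.02 over 13 of 14 genes. Akap7 differed by -0.21 ± 0.12 and Akap9 by 0.13 ± 0.11.

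**Figure D4:**
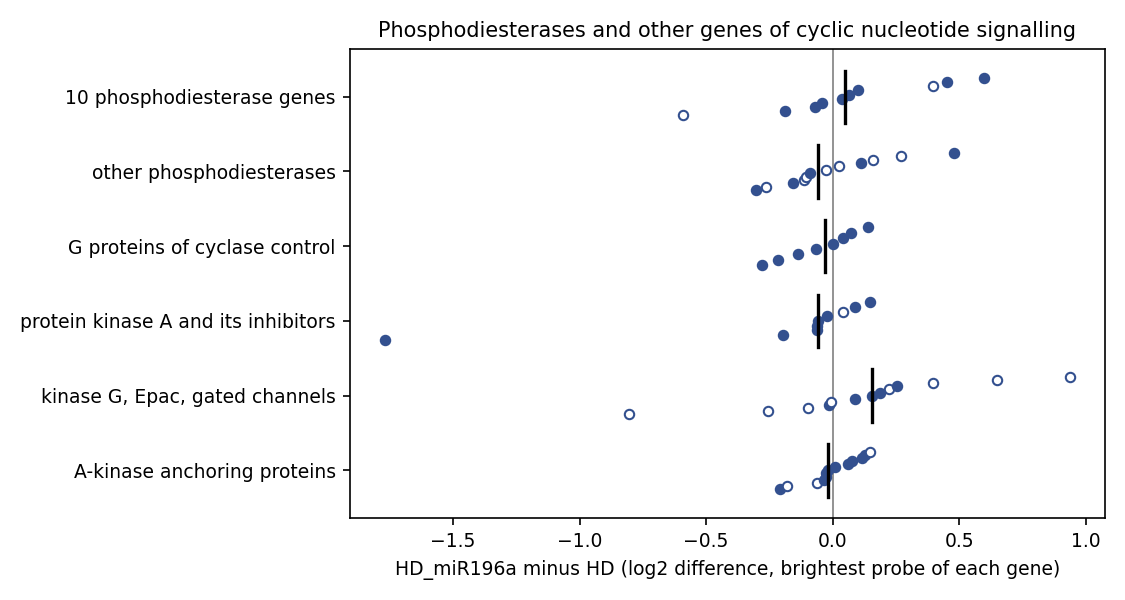
Difference, HD_miR196a minus HD (log2, horizontal axis), of the brightest probe of each gene in the set of 10 phosphodiesterases and in the 5 other lists with at least 5 measured genes; black bars are medians, and open points have a mean under the 95th percentile of olfactory receptor probes. The list medians lie between -0.06 and 0.16, and the single point at -1.77 is Prkar1b.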

How the data were processed

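RNA of 5 striata was amplified, labelled with Cy5 and hybridised to a single-colour array, per the labels' protocols. What the authors deposited is a table of linear intensities with 1 value for a probe in each mouse. Per the labels' titles, the authors combined 2 technical repeats of each mouse, so the mouse is the replicate. Some values lie below 0, for a reason the labels do not give. The sources used here name no scanner, software or scaling.

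Intensities of all 26423 probes were quantile-normalized, floored at 1 and log2-transformed. The groups were then fitted by lmFit and eBayes (limma 3.58.1, R 4.3.3, two-sided, 3 residual and 1.75 prior degrees of freedom, Benjamini-Hochberg over all probes). The number of arrays limits the precision. Platform symbols were matched to RefSeq names of GRCm38.p6: 18213 directly, 2126 by synonym, 38 not, and 6046 probes had none. A gene with several probes is represented in lists by its brightest. The 10 genes and all lists were chosen with earlier results of these data known. Named are all probes of the 10 genes, the 2 genes of each pathway list with the smallest p, and the 5 genes most like Pde10a and Pde1b. Gnal, Rgs9 and other markers are named as background to a list. Alternatives covered scaling, filters, floor, variance settings, array weights, a replicate block, a cortical covariate and leaving out mice.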

Additional observations from a re-analysis of the deposited data

How the results depend on the processing

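The count of 0 called phosphodiesterase probes held in each of the 16 alternatives run. Of 264 values of single probes under alternatives, 237 kept their sign and 27 turned, and none was called in any fit. The filters and variance settings cannot change a difference, and the higher floor changed only those of Pde8b and the dim Pde4d probe. Many of the 264 values were thus bound to keep their sign. The replicate block gave the same differences as the fit without HD_miR196a mouse 3. Groups were apart at 5 probes, 3 higher and 2 lower. Without scaling it was 0 higher and 5 lower: both Pde4b probes, Pde8b and the bright and the dim Pde4d probe, while Pde10a, Pde1b and Pde7b overlapped (all probes: 1.76% apart upward, 38.1% downward). Probes apart numbered 15 without mouse 1 of each group (all probes: 33.9% upward, 32.6% downward) and 6 to 13 with 1 mouse left out, the 13 without HD mouse 1 (26.7% and 25.6%). At an unadjusted p under 0.05 there were 2 probes, 1 with the higher floor or the cortical covariate, and 3 with median centring or array weights. Without scaling the 2 were Pde4d probes, and with the replicate block Pde10a and the second Pde1c probe (0.49), not Pde1b. Leaving out mouse 1 of each group gave 0, and leaving out single mice gave 1 to 3. The median difference of the 10 genes, 0.05, was -0.18 without scaling, where that of all probes was -0.20. With 1 mouse left out, the median of the 10 genes lay between -0.064, where HD mouse 1 was left out, and 0.20, where HD mouse 2 was. For these shifts the cause was not tested.

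Without scaling, the 2 brighter Pde1c probes turned to -0.17 and -0.032, Pde2a to -0.14 and Pde4a to -0.20. Relative to the shift of all probes they were, in this order, at 0.033, 0.17, 0.063 and 0.0027. Pde4a was also at -0.025 with median centring and -0.025 without mouse 1 of each group. With 1 mouse left out, the ranges that crossed 0 were -0.40 to 0.26, -0.48 to 0.075 and -0.38 to 0.17 for 3 Pde1a probes, and -0.20 to 0.33, -0.043 to 0.49 and -0.14 to 0.53 for Pde1c. They were -0.039 to 0.24 for Pde2a, -0.094 to 0.16 for Pde4a, -0.10 to 0.016 and -0.24 to 0.037 for Pde4b, and -0.22 to 0.18 for the middle Pde4d probe.

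Only numbers 1 and 2 are shared by the groups, and nothing says that they pair mice. Across probes, deviations of the mice with equal numbers correlated at 0.236 and 0.170. With the replicate block 0 probes of the 10 genes were called, the Pde10a, Pde1b and Pde7b differences were 0.76, 0.40 and 0.44, and the middle Pde4d probe was at 0.0011. HD_miR196a mouse 3 adds nothing to that fit. Dim signal limits Pde7b, Pde8b and the dim probes of Pde1c, Pde4b and Pde4d, where the floor at the olfactory receptor median left no difference for Pde8b.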
